A study of Artemia parthenogenetic lineage with 6 samples.

Results

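Gene models of the brine shrimp that were expressed in diapause cysts and stood at least 3 times higher 5 h after embryonic diapause termination (EDT) are described here. A model was taken when its identifier began with evm.TU, when it reached at least 2 CPM (a count scaled to a common library total) in every ArD_0h library, when its lowest ArR_5h library was at least 3 times its highest ArD_0h library, and when its mean at 5 h stayed below 200 CPM. The rule found 128 of the 16591 gene models in the count table. They come from 8311 evm.TU models that reached 2 CPM in every ArD_0h library, and the other 8183 of these serve as the comparison below. The upper limit left out 2 models that met the rest of the rule. evm.TU.ctg786.13 averaged 839.8 CPM in ArR_5h and 97.7 CPM in ArD_0h, and evm.TU.ctg397.23 averaged 216 CPM in ArR_5h and 18.2 CPM in ArD_0h. Because the rule used the levels of both groups, the size of the increase is given as a description, without a test.

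RNA was sequenced from whole wild-type cysts of Artemia parthenogenetica, 3 libraries from cysts at 5 h after EDT (ArR_5h) and 3 from cysts at the diapause stage (ArD_0h). All cysts came from a single lake collection and received no drug or other agent, and each group's 3 libraries were biological replicates by the study's account. Reactivated cysts had been dried and chilled to break diapause, rehydrated in ice-cold seawater of 30‰ salinity and kept at 28 °C in constant light. Which of these steps the ArD_0h cysts went through is not clear from the sources used here, so effects of handling and of time cannot be told apart. ArR_5h replicates 1, 2 and 3 held 11287233, 9992823 and 12283327 counts, against 10577879, 10135128 and 13505892 in the ArD_0h replicates, and 13992 to 14122 models had reads in each library. In RNA of whole cysts, more cells with a transcript and more transcript per cell cannot be told apart. The cyst label was not checked against marker genes, since the table gives identifiers without gene names.

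An Artemia cyst is a gastrula-stage embryo inside a shell. In diapause its metabolism and development are halted and its cells stop dividing, while it keeps stored messenger RNA. Once diapause has ended and water, oxygen and warmth are present, the embryo resumes metabolism and transcription and later hatches as a swimming nauplius. A model already read in diapause and higher at 5 h thus had reads from the dormant embryo. Its reads made up a larger share of the library's counts after reactivation. Whether the embryo then held more of the transcript was not tested.

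The models stood at low to middle levels in both groups. Their mean level ran between 9.56 and 178 CPM in ArR_5h, with a median of 29.7 CPM, and between 2.14 and 47.1 CPM in ArD_0h, with a median of 6.34 CPM. Per length, their median was 17.5 FPKM (scaled by the authors for model length and library size) in ArR_5h and 3.52 FPKM in ArD_0h. The other 8183 models had medians of 21.5 and 20.1 FPKM. The rule, with its 3-fold rise and its limit at 5 h, bears on all of these levels, and nothing is read from their difference. The ratio of means had a median of 4.62 and spanned 3.20 to 13.5.

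The models together took 0.576%, 0.616% and 0.496% of all counts in ArR_5h replicates 1, 2 and 3, against 0.124%, 0.126% and 0.120% in those of ArD_0h. All 3 ArR_5h libraries lay above all 3 ArD_0h libraries in this sum, with replicate 3 the lowest at 5 h.

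In the fit of edgeR across all models, the log2 fold change of the 128 models had a median of 2.18 and ran from 1.65 to 3.71, with standard errors of 0.08 to 0.29. The median was -0.01 over all 11959 models tested and -0.02 over the other 8183 evm.TU models. Fitted changes reached 4-fold in 92 models, 5-fold in 40, 6-fold in 15 and 8-fold in 2. All 128 were called up-regulated (adjusted p at most 0.05 and log2 fold change over 1), where 14.3% of all models tested and 12.2% of the 8311 evm.TU models were, with 7.99% of the 8311 called down-regulated. With the fold limit built into the test, all 128 stayed called at 2-fold, beside 6.99% of all models. At 3-fold the same test called 81 of 128 (63.3%), beside 1.22%. Groups that did not overlap, with ArR_5h higher, were seen in 36.5% of the 8311 models. The rule fixes these counts for its own models, and nothing is read from them.

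**Figure D1:**
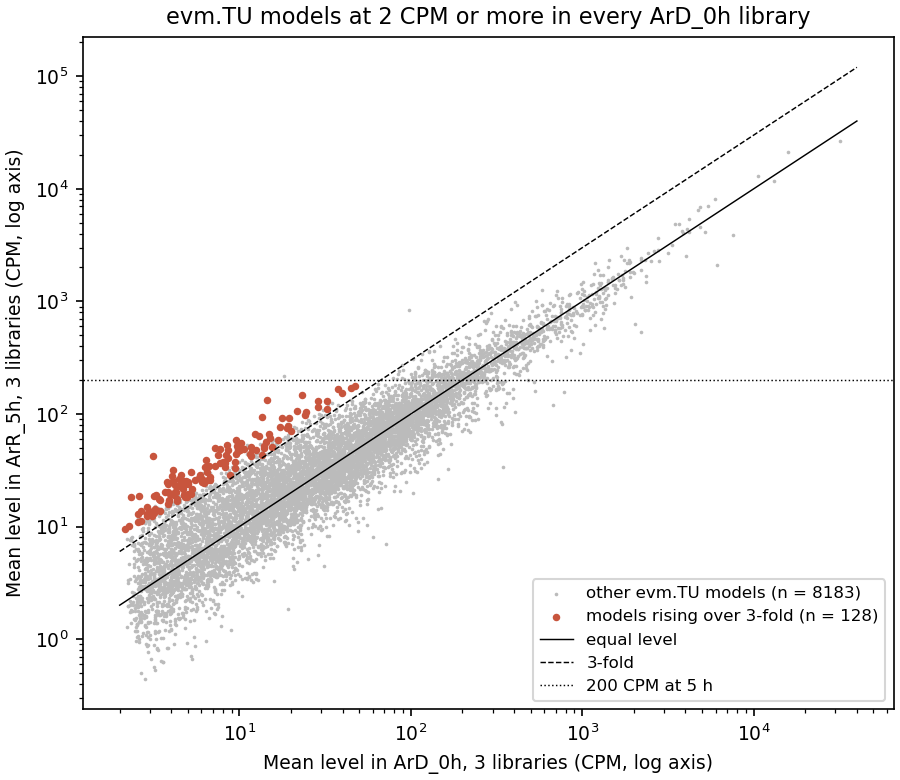
Mean level of each of the 8311 evm.TU models in ArR_5h (vertical axis) against ArD_0h (horizontal axis), in CPM on log axes, with each point the mean of 3 libraries. The 128 rising models lie above the dashed 3-fold line and below the dotted line at 200 CPM, and none has a mean of 50 CPM or more in ArD_0h.

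The 128 were not spread evenly over diapause levels, which are part of the rule, so their shares are given without a test. Between 2 and 5 CPM in ArD_0h they were 52 of 1055 evm.TU models (4.93%), between 5 and 10 CPM 38 of 1173 (3.24%), between 10 and 20 CPM 26 of 1327 (1.96%) and between 20 and 50 CPM 12 of 1837 (0.653%). At 50 CPM or more there were 0 of 2919. Without the upper limit at 5 h, evm.TU.ctg786.13 alone would enter this class. The median log2 fold change was 2.28 in the lowest class and 1.98 between 20 and 50 CPM. The lowest count of a model in any library was 21 to 490 reads, with a median of 60.

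The largest increase was that of evm.TU.ctg303.3, which had 44.7, 57.5 and 24.1 CPM in ArR_5h, against 3.78, 2.66 and 2.89 CPM in ArD_0h. Its log2 fold change was 3.71 ± 0.29 (SE), and it was also among the 5 longest models and the 3 with the widest spread at 5 h, replicate 2 being more than double replicate 3. That its groups did not overlap follows from the rule. Its lowest ArR_5h library was 6.37 times its highest ArD_0h library, where the rule asks for 3. Its lowest library held 27 reads. Only evm.TU.ctg222.1 also passed 8-fold, with 137, 146 and 118 CPM in ArR_5h, against 13.1, 17.5 and 12.7 CPM in ArD_0h (log2 fold change 3.19 ± 0.13). Neither has an entry in the annotation used here, so their products are not named.

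Of the other 8 models among the 10 largest increases, 2 started from the rule's floor. evm.TU.ctg4711.4 had 19.7, 17.7 and 17.0 CPM in ArR_5h, against 2.27, 2.17 and 2.52 CPM in ArD_0h (log2 fold change 2.92 ± 0.17). evm.TU.ctg3.20 had 19.8, 22.2 and 13.8 CPM in ArR_5h, against 3.40, 2.07 and 2.30 CPM in ArD_0h (2.80 ± 0.23). In both, the diapause level rested on few reads, 21 or 22 in the lowest library. evm.TU.ctg733.1 had 29.7, 34.6 and 31.7 CPM in ArR_5h, against 3.69, 4.74 and 3.78 CPM in ArD_0h (2.95 ± 0.15). At the other end of the level range, evm.TU.ctg1432.3 had 95.8, 115 and 72.6 CPM in ArR_5h, against 15.03, 13.5 and 11.8 CPM in ArD_0h (2.78 ± 0.15). The remaining 4 were evm.TU.ctg284.40, evm.TU.ctg226.10, evm.TU.ctg1096.3 and evm.TU.ctg8.27, with log2 fold changes of 2.76, 2.75, 2.67 and 2.63. Of these 10, the annotation describes evm.TU.ctg284.40 alone, as an oxidoreductase.

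Function could be read for 31 of the 128 models. The source is a list in the study of genes whose RNA and chromatin accessibility changed in the same direction in the first minutes of EDT. It gives Gene Ontology (GO) terms for each, and the study counted more up-regulated than down-regulated genes among them. That list was chosen partly on the ArD_0h libraries used here, so it is not independent evidence of a direction, and only part of it could be read. Among its 567 readable models, 566 were tested, of which 224 had an up-regulated call and 10 a down-regulated call. The make-up of the list bears on every count by GO group below, and nothing about a role is read from those counts. It held 36 of the 128 models, 5 of them without terms, and 92 had no entry. The 36 had a median log2 fold change of 2.24 and a median mean level of 37.7 CPM at 5 h. The 92 without an entry had 2.14 and 27.9 CPM. Roles below are those of the GO terms, predicted from sequence, and were not tested in Artemia. Each model is described once, under the role assigned to it here, although many carry terms of several roles.

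Receptors and their immediate signalling partners come first. evm.TU.ctg485.29, which the study names as an adhesion G-protein coupled receptor E5, had 81.8, 79.8 and 63.5 CPM in ArR_5h, against 20.3, 18.2 and 18.4 CPM in ArD_0h (log2 fold change 1.95 ± 0.10). Adhesion receptors of this family carry a long extracellular part that binds other cells or matrix, joined to the membrane-spanning part that signals through G proteins. evm.TU.ctg756.7, named Loco, had 83.4, 88.4 and 62.6 CPM in ArR_5h, against 18.6, 20.4 and 18.5 CPM in ArD_0h (1.99 ± 0.12). Loco is known in Drosophila as a regulator of G-protein signalling, which speeds up GTP hydrolysis on the G-protein alpha subunit and so ends a signal. The receptor and the regulator had similar CPM in every library, with replicate 3 the lowest at 5 h in both. Per length they differed, with means of 33.4 ± 2.81 FPKM for the receptor and 14.9 ± 1.80 FPKM for Loco in ArR_5h, against 8.52 ± 0.470 and 3.71 ± 0.218 FPKM in ArD_0h (SD, n = 3 each). evm.TU.ctg557.4 carried the term adenylate cyclase, the enzyme that makes cyclic AMP downstream of many such receptors. It had 25.8, 33.8 and 19.0 CPM in ArR_5h, against 5.01, 4.74 and 3.63 CPM in ArD_0h (2.52 ± 0.21). In the readable list, 25 of 46 models with a signal transduction term had an up-regulated call and 0 a down-regulated call. Over all 566 tested models of that list the counts were 224 and 10. Of the 46, 4 were among the 128. For G-protein coupled receptor activity 2 of 4 were called, 1 of them among the 128.

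The models placed next, under enzymes that add or remove phosphate, were 4 with log2 fold changes of 2.18 to 2.62. The kinase evm.TU.ctg71.10 had 41.4, 48.7 and 31.8 CPM in ArR_5h, against 9.08, 8.98 and 7.70 CPM in ArD_0h. evm.TU.ctg215.33, a predicted serine/threonine kinase, had 37.5, 47.0 and 25.6 CPM in ArR_5h, against 7.09, 7.89 and 8.14 CPM in ArD_0h. evm.TU.ctg607.24 carried both kinase and acid phosphatase terms and changed by 2.18 ± 0.19. Replicate 2 was the highest and replicate 3 the lowest ArR_5h library in all 3. evm.TU.ctg600.1 joined tyrosine phosphatase terms with those of SWI/SNF, a complex that moves nucleosomes, and had 47.5, 60.6 and 37.9 CPM in ArR_5h, against 7.75, 7.01 and 8.29 CPM in ArD_0h (2.62 ± 0.16). Across the readable list, 18 of 27 protein kinases and 4 of 10 phosphatases were called up-regulated, and 0 of either down-regulated. Its 566 tested models had 224 and 10 such calls.

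Under DNA, RNA and chromatin 6 models were placed, and others described elsewhere (evm.TU.ctg600.1, evm.TU.ctg6.31, evm.TU.ctg110.15 and evm.TU.ctg707.3) carried such terms too. evm.TU.ctg826.3 carried the term poly(ADP-ribose) glycohydrolase, an enzyme that removes ADP-ribose chains added to proteins at damaged DNA and active chromatin. It had 92.5, 106 and 75.6 CPM in ArR_5h, against 18.7, 21.2 and 18.4 CPM in ArD_0h (log2 fold change 2.20 ± 0.11). evm.TU.ctg186.18, with terms of messenger RNA splicing and the endoplasmic reticulum membrane, had 58.4, 56.0 and 44.3 CPM in ArR_5h, against 8.13, 8.78 and 8.51 CPM in ArD_0h (2.61 ± 0.12). It was also among the 5 highest per length at 5 h, at 88.3 ± 8.44 FPKM in ArR_5h and 14.3 ± 0.639 FPKM in ArD_0h. Sequence-specific transcription factors were represented by evm.TU.ctg226.17 alone, which had 20.3, 21.3 and 15.8 CPM in ArR_5h, against 4.35, 4.93 and 4.96 CPM in ArD_0h (1.97 ± 0.16). In the readable list 8 of 24 transcription factors were called up-regulated and 0 down-regulated, beside 224 and 10 of all 566 tested. The chromatin-binding model evm.TU.ctg984.2 stood close to both limits of the rule, with 12.8, 14.7 and 11.8 CPM in ArR_5h, against 3.40, 2.17 and 3.92 CPM in ArD_0h (1.99 ± 0.21). The nucleic-acid-binding models evm.TU.ctg130.15 and evm.TU.ctg1.46_evm.TU.ctg1.48 changed by 1.92 ± 0.12 and 2.11 ± 0.09, and the second, a joined identifier, was among the 5 most abundant of the 128 with a mean of 166 CPM in ArR_5h and 37.5 CPM in ArD_0h.

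Transport models numbered 4. evm.TU.ctg620.17, with terms of the clathrin coat that shapes vesicles at the plasma membrane and the Golgi, had 41.5, 36.7 and 37.8 CPM in ArR_5h, against 6.05, 5.92 and 7.18 CPM in ArD_0h (log2 fold change 2.56 ± 0.14). evm.TU.ctg6.31 and evm.TU.ctg110.15 both carried terms of proton transport and changed by 2.22 ± 0.14 and 2.39 ± 0.23. Each also carried unrelated terms, of the Slx1-Slx4 DNA nuclease complex, DNA replication and DNA repair in the first, and of RNA binding and phosphatase activity in the second. The membrane transporter evm.TU.ctg356.51 had 23.7, 32.1 and 22.6 CPM in ArR_5h, against 6.33, 6.31 and 6.89 CPM in ArD_0h (1.96 ± 0.16). Of the 26 transporters in the readable list, 13 were called up-regulated and 1 down-regulated, beside 224 and 10 of all 566 tested.

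Adhesion, cell-surface and other membrane models made up a group of 6, with log2 fold changes of 2.12 to 2.58. evm.TU.ctg206.40, a calcium-binding cell-surface protein and at 8936 bases among the 5 longest, had 50.6, 51.9 and 42.3 CPM in ArR_5h, against 9.45, 8.68 and 7.63 CPM in ArD_0h. evm.TU.ctg707.3, which carried terms of homophilic adhesion and calcium binding beside those of signal transduction, DNA binding, DNA replication and the nucleus, had 12.3, 17.1 and 11.7 CPM in ArR_5h, against 3.12, 2.17 and 2.67 CPM in ArD_0h. Homophilic adhesion is the binding of a molecule to its own kind on the next cell. evm.TU.ctg140.1, a membrane protein of cell adhesion, had 19.1, 22.6 and 19.1 CPM in ArR_5h, against 3.59, 5.82 and 3.18 CPM in ArD_0h. evm.TU.ctg85.11, chosen after its values were seen, carried terms of the dystrophin-associated complex, which ties the cytoskeleton to the membrane, and changed by 2.27 ± 0.22. evm.TU.ctg898.1 carried the term sperm-egg recognition and changed by 2.12 ± 0.19. This lineage reproduces without males, and the term is a prediction from sequence. The sixth, evm.TU.ctg150.31, had only membrane and protein-binding terms, the largest change of the group and 64.2, 72.2 and 40.3 CPM in ArR_5h, against 8.79, 10.1 and 9.85 CPM in ArD_0h. Of 14 calcium-binding models in the readable list, 12 were called up-regulated and 0 down-regulated, beside 224 and 10 of all 566 tested. Among the 128 were 3 of the 14.

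Metabolic enzymes numbered 3 and included 2 of the 5 most abundant of the 128 models. evm.TU.ctg67.3, a predicted glycosyltransferase of the first step in making glycosylphosphatidylinositol anchors, which hold proteins on the cell surface, had 173, 164 and 176 CPM in ArR_5h, against 44.9, 43.3 and 45.5 CPM in ArD_0h (log2 fold change 1.92 ± 0.09). It was among the few in which replicate 3 was the highest library at 5 h. The metal-binding oxidoreductase evm.TU.ctg118.5 had 147, 156 and 136 CPM in ArR_5h, against 24.6, 24.7 and 20.7 CPM in ArD_0h (2.62 ± 0.09). evm.TU.ctg284.40, an oxidoreductase acting on aldehyde or oxo groups, had 52.2, 54.7 and 41.7 CPM in ArR_5h, against 6.81, 8.68 and 5.997 CPM in ArD_0h (2.76 ± 0.15). In the readable list 11 of 35 oxidoreductases were called up-regulated and 1 down-regulated, beside 224 and 10 of all 566 tested.

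The last 5 annotated models shared no role. evm.TU.ctg900.14, with terms of negative regulation of apoptosis, had 22.9, 32.6 and 21.2 CPM in ArR_5h, against 4.54, 3.65 and 4.15 CPM in ArD_0h. evm.TU.ctg1246.3, with a term of pigment granules, had 25.1, 22.0 and 21.7 CPM in ArR_5h, against 3.97, 5.62 and 3.63 CPM in ArD_0h. Both were chosen after their values were seen. The other three, with zinc- or protein-binding terms, had log2 fold changes of at most 2.33. None of the 31 annotated models carried a peptidase, cytoskeleton component, cell cycle, translation or ribosome term in the readable text, in which 16 of their entries were cut short. The readable list held 21, 15, 9, 4 and 5 such models, of which 9, 6, 2, 1 and 3 were called up-regulated. Of all 566 tested in it, 224 were. With 36 of the 567 listed models among the 128, groups of this size would hold few members in any case.

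**Figure D2:**
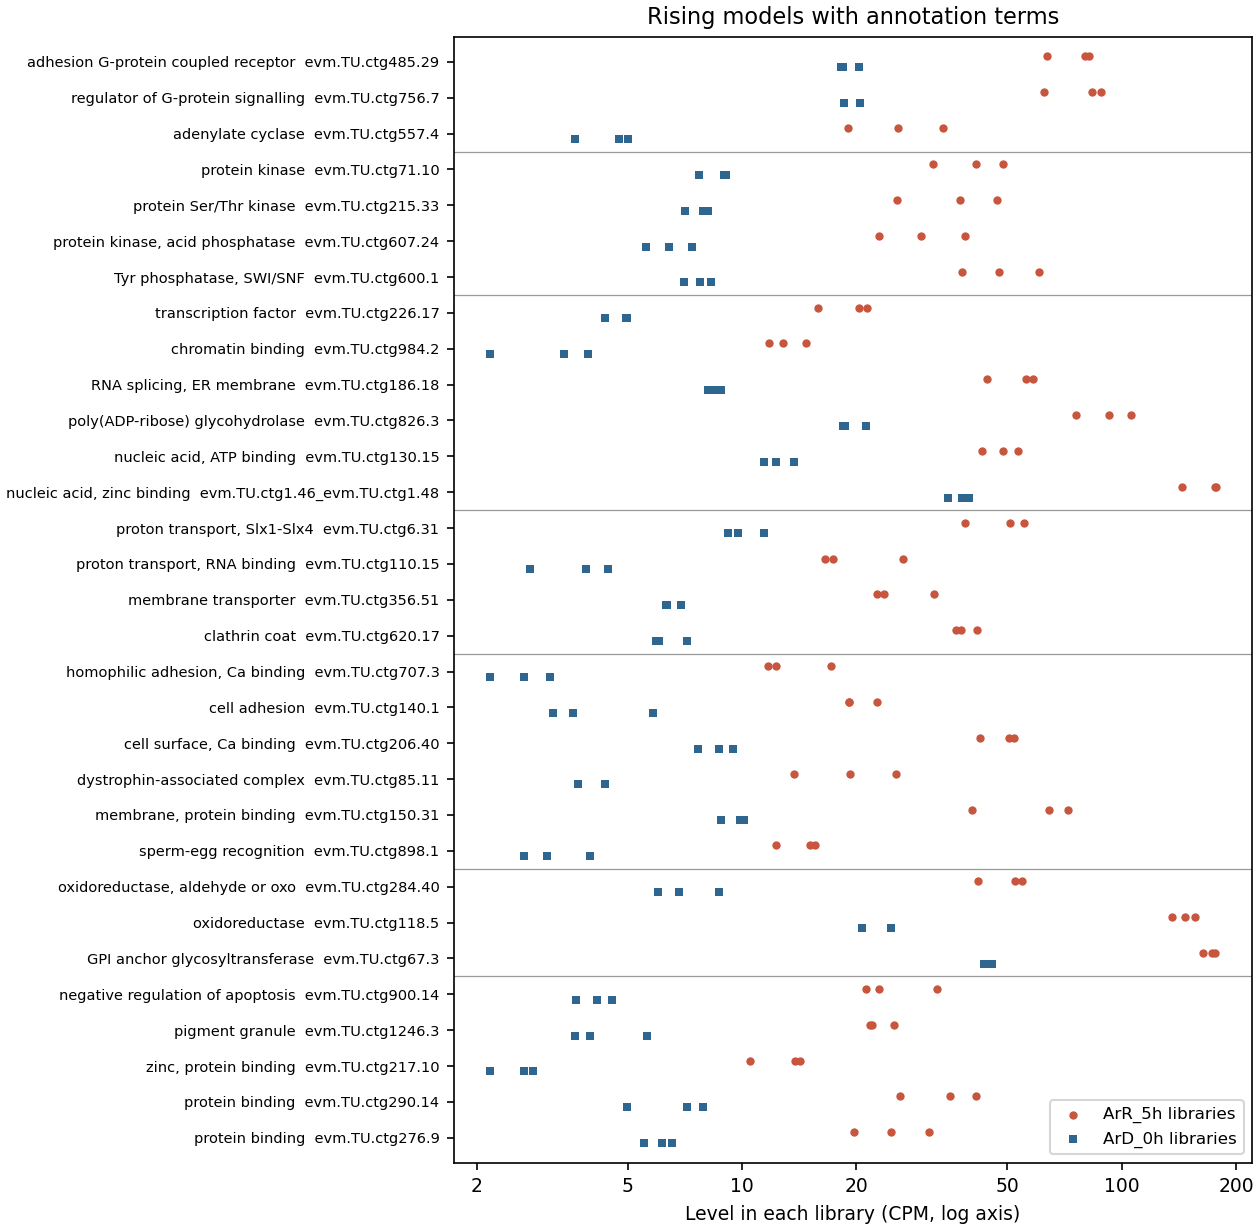
Level of the 31 annotated models in each library, in CPM on a log axis, with circles for the 3 ArR_5h libraries, squares for the 3 ArD_0h libraries, and lines between the role groups (signalling, kinases and phosphatases, nucleic acids and chromatin, transport, adhesion and surface, metabolism, other). In every model all circles lie to the right of all squares, as the rule requires, and the models range from about the 2 CPM floor in ArD_0h to 177 CPM in ArR_5h.

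Among models without a described function, evm.TU.ctg1123.2 was both the most abundant by CPM and the longest, at 10047 bases. It had 187, 199 and 148 CPM in ArR_5h, against 46.3, 48.6 and 46.2 CPM in ArD_0h. Per length it was modest, at 17.4 ± 1.65 FPKM in ArR_5h and 4.65 ± 0.150 FPKM in ArD_0h. evm.TU.ctg370.17, of 9882 bases, had 113, 112 and 84.9 CPM in ArR_5h, against 24.1, 24.8 and 24.0 CPM in ArD_0h, with replicate 3 again the lowest at 5 h. evm.TU.ctg709.7, of 7024 bases, averaged 43.8 ± 6.72 CPM in ArR_5h and 11.5 ± 0.486 CPM in ArD_0h (SD, n = 3 each). evm.TU.ctg431.7, also among the 5 most abundant, had 167, 162 and 131 CPM in ArR_5h, against 41.2, 41.1 and 36.5 CPM in ArD_0h. In these models the ArD_0h libraries lay closer together than the ArR_5h libraries. Not all long or abundant models showed this. The coefficient of variation of CPM was 6.77% in ArR_5h and 9.83% in ArD_0h for evm.TU.ctg118.5, and 10.9% and 10.7% for evm.TU.ctg206.40. The highest level per length belonged to a short model, evm.TU.ctg2333.1 of 647 bases, with 162 ± 24.7 FPKM in ArR_5h and 33.1 ± 3.50 FPKM in ArD_0h. It was followed by evm.TU.ctg11.20 with 97.8 ± 12.3 FPKM in ArR_5h and 27.9 ± 2.79 FPKM in ArD_0h, evm.TU.ctg290.12 with 96.9 ± 6.95 FPKM in ArR_5h and 29.4 ± 1.75 FPKM in ArD_0h, and evm.TU.ctg5610.1 with 96.0 ± 13.4 FPKM in ArR_5h and 24.0 ± 1.33 FPKM in ArD_0h. These 3 did not differ beyond their spread at 5 h. The least abundant by CPM was evm.TU.ctg372.24, with 7.80, 12.4 and 8.47 CPM in ArR_5h, against 2.27, 2.07 and 2.07 CPM in ArD_0h, followed by evm.TU.ctg162.6 and evm.TU.ctg642.16 with means of 10.2 and 11.0 CPM in ArR_5h, against 2.27 and 2.56 CPM in ArD_0h.

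Length was not part of the rule, and the 128 models were longer than their comparison models. Their median length was 1982 bases (345 to 10047), against 1368 bases in the other 8183. The share of evm.TU models that were among the 128 was 0.686% under 1000 bases, 1.46% from 1000 to 2000, 2.35% from 2000 to 3000, 2.48% from 3000 to 5000 and 4.82%, or 11 of 228, from 5000 bases up. The difference was present at each diapause level. Between 2 and 5 CPM in ArD_0h the medians were 1589 bases in the 128 and 1053 in the others, between 5 and 10 CPM 2102 and 1134, between 10 and 20 CPM 2176 and 1314, and between 20 and 50 CPM 2710 and 1418. These are descriptions over models, which are not replicates, and no test was made. At one CPM value a longer model has a lower level per length.

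Placement along the genome was read from the identifiers, which give a contig and a number on it that was taken as the order of models. Coordinates were not used here. The 128 models lay on 118 contigs, 9 of which held more than 1. On 2 contigs a pair had consecutive numbers. evm.TU.ctg284.40 and evm.TU.ctg284.41 had log2 fold changes of 2.76 ± 0.15 and 2.13 ± 0.13, and evm.TU.ctg1054.3 and evm.TU.ctg1054.4 had 1.82 ± 0.13 and 2.05 ± 0.19. The contig with the most, 3, held evm.TU.ctg226.10, evm.TU.ctg226.14 and the transcription factor evm.TU.ctg226.17, of which evm.TU.ctg226.14 was chosen after its values were seen. The library kit does not mark strand, so reads of overlapping models could not be told apart.

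Of 113 tested models next to a member of the 128 by number, 28 (24.8%) were called up-regulated and 5 (4.42%) down-regulated, where 14.7% and 8.21% of all 9541 tested evm.TU models were. Without the 4 neighbours that are themselves among the 128, the counts were 24 (22.0%) and 5 (4.59%) of 109, with a median log2 fold change of 0.09 beside 0.02 for all tested evm.TU models. At 2 steps away, 16 of 85 such neighbours (18.8%) had an up-regulated call and 8 (9.41%) a down-regulated call. At 3 steps the counts were 11 (13.3%) and 8 (9.64%) of 83. Among the 24 up-regulated neighbours, 15 fell under 2 CPM in at least 1 ArD_0h library and so could not enter by the rule. An example, chosen after its values were seen, is the contig that holds evm.TU.ctg4711.1 and evm.TU.ctg4711.4. Between them, evm.TU.ctg4711.2 had 13.8, 13.8 and 13.6 CPM in ArR_5h, against 1.61, 1.97 and 2.52 CPM in ArD_0h, and evm.TU.ctg4711.3 had 8.06, 7.61 and 7.73 CPM in ArR_5h, against 0.567, 0.493 and 0.889 CPM in ArD_0h. All 4 models in that run were thus higher in every ArR_5h library. evm.TU.ctg4711.1 and evm.TU.ctg4711.4 have the same recovered length of 885 bases, and whether they are near-identical copies that share reads was not tested. Neighbours could also move the other way, as evm.TU.ctg587.9, next to evm.TU.ctg587.8, with 37.5, 42.7 and 29.6 CPM in ArR_5h, against 121, 106 and 105 CPM in ArD_0h.

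**Figure D3:**
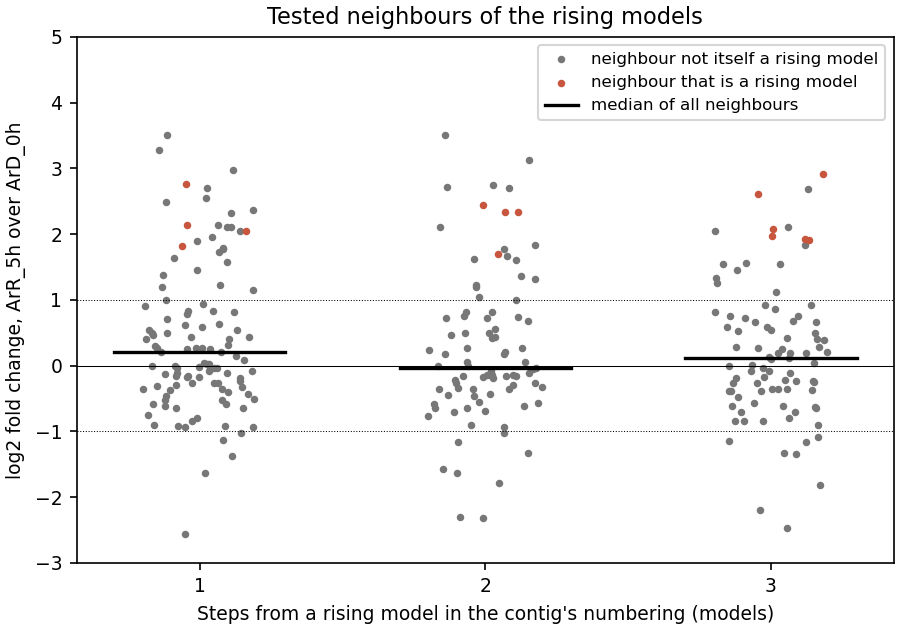
Log2 fold change (ArR_5h over ArD_0h, vertical axis) of tested models 1, 2 or 3 steps from a rising model in the contig numbering (horizontal axis), with each point a model, bars for the medians and dotted lines at 1 and -1. Of the plotted models, 28 of 113 (24.8%) were called up-regulated at 1 step, 20 of 89 (22.5%) at 2 and 17 of 89 (19.1%) at 3. The medians of 0.20, -0.04 and 0.11 stay near 0.

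The ArR_5h libraries differed among themselves in these models. Replicate 2 was the highest at 5 h in 81 of the 128, replicate 1 in 35 and replicate 3 in 12. Replicate 3 was the lowest in 100 (78.1%), while it was the lowest in 59.4% of the other 8183 models. In the median model, replicates 1, 2 and 3 stood at 101%, 109% and 87.5% of the ArR_5h mean, where the other models had 102%, 104% and 93.0%. Part of this order goes with the scaling. With TMM factors, which adjust for the makeup of a library, replicate 3 was the lowest in 71 models (55.5%), beside 44.9% of the others, and replicate 2 was the highest in 69. The ArD_0h libraries had no such order, with the highest level in replicate 1 in 44 models, in replicate 2 in 49 and in replicate 3 in 35. Over all models, Pearson r of log2(CPM + 1) was 0.995 between ArR_5h replicates 1 and 2, 0.993 between 1 and 3 and 0.989 between 2 and 3. Both pairs with replicate 3 were thus slightly lower, and the lowest pair also held replicate 2. Among ArD_0h libraries r was 0.996. Without ArR_5h replicate 3, all 128 models were still called and their median log2 fold change was 2.20. The rule chose them on these same libraries, so nothing is read from those calls.

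The spread between libraries was wider at 5 h than in diapause. The coefficient of variation, of CPM by column totals throughout, had a median of 12.7% in ArR_5h and 10.02% in ArD_0h over the 128 models. Over the other models, which stood higher in diapause, the medians were 12.0% and 6.16%. evm.TU.ctg1027.1 had the widest spread at 5 h, with 25.4, 36.0 and 15.5 CPM in ArR_5h, against 4.92, 4.83 and 4.96 CPM in ArD_0h. evm.TU.ctg227.15 was similar, with 27.4, 31.3 and 15.1 CPM in ArR_5h, against 4.54, 4.93 and 4.29 CPM in ArD_0h. In both, as in evm.TU.ctg303.3, replicate 2 was highest and replicate 3 lowest. At the narrow end were evm.TU.ctg290.12, with 51.3, 50.6 and 51.8 CPM in ArR_5h, against 14.6, 16.1 and 15.8 CPM in ArD_0h, and evm.TU.ctg22.7, with 51.9, 52.8 and 51.4 CPM in ArR_5h, against 8.70, 10.3 and 10.2 CPM in ArD_0h. These narrow models had means of 51.2 and 52.0 CPM at 5 h, and the wide ones 25.6, 24.6 and, for evm.TU.ctg303.3, 42.1 CPM. Which models are narrowest depends on the scaling. In FPKM at 5 h evm.TU.ctg290.12 had 96.9 ± 6.95 and evm.TU.ctg22.7 17.6 ± 0.844 (SD), while evm.TU.ctg118.5 had 84.0 ± 1.12. The wide models evm.TU.ctg1027.1, evm.TU.ctg227.15 and evm.TU.ctg303.3 stayed wide, at 4.47 ± 1.57, 7.14 ± 2.11 and 7.12 ± 2.51 FPKM. Level and spread did not always go together. At 5 h evm.TU.ctg150.31 had a coefficient of variation of 28.2% at a mean of 58.9 CPM, and evm.TU.ctg1054.4 had 3.62% at 11.3 CPM.

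**Figure D4:**
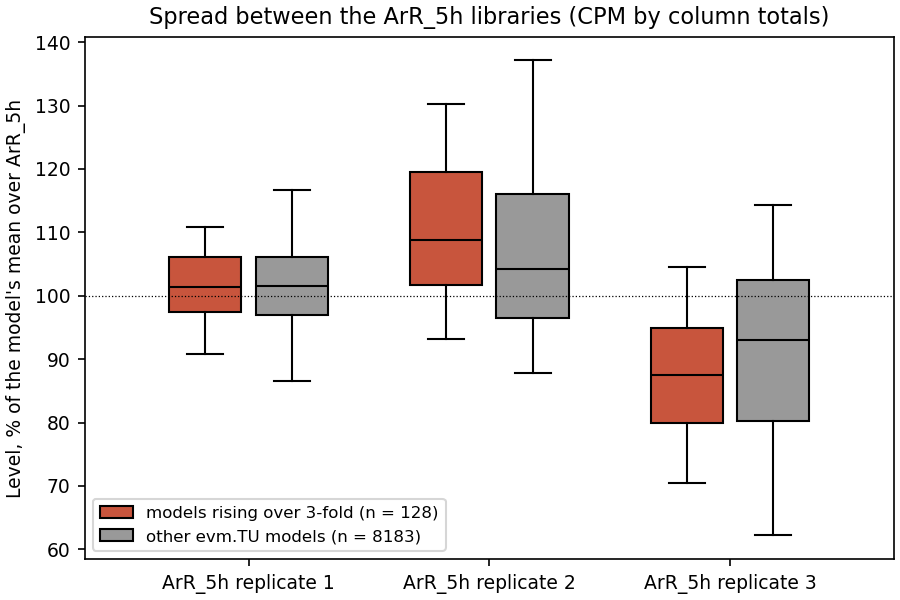
Level of each model in ArR_5h replicates 1, 2 and 3 as a percentage of its own mean over the 3 libraries, for the 128 rising models (left box of each pair) and the other 8183 evm.TU models (right box), with boxes from the lower to the upper quartile, a line at the median and whiskers from the 5th to the 95th percentile. Replicate 3 lies lowest in both, with medians of 87.5% for the rising models and 93.0% for the others.

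The rule was also applied with each library left out in turn, and the chosen models were then read in that library. The libraries of the other group had been used in the choice and enter the ratio, so these shares are descriptions and not independent support, and for each ArR_5h library the models that reached 3 are the same 128. Chosen without ArR_5h replicate 1, 134 models met the rule, and in replicate 1 itself 95.5% of them were at least 3 times the highest ArD_0h library, with a median ratio of 4.13. Over all 8311 models the same ratio had a median of 0.96 and reached 3 in 3.16%. Without ArR_5h replicate 2 the rule chose 135 models, of which 94.8% reached 3 in replicate 2 (median 4.42, beside 4.58% and a median of 0.98 over all models). Without ArR_5h replicate 3 it chose 234, of which 54.7% reached 3 in replicate 3 (median 3.06, beside 1.80% and a median of 0.91 over all models). All 234 were above the highest ArD_0h library there, the lowest at 1.72 times, as were 42.4% of all 8311 models. Leaving out ArD_0h replicates 1, 2 and 3 gave 160, 166 and 136 models, and every ArR_5h library was at least 3 times the left-out library in 83.8%, 79.5% and 94.1% of them, beside 2.31% to 2.86% of all 8311. ArR_5h replicate 3 was thus the library that most often kept models out.

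The limit of 3 cut through a continuous range. Just inside it were evm.TU.ctg112.32, evm.TU.ctg984.2 and evm.TU.ctg118.9, with ratios of lowest ArR_5h to highest ArD_0h level of 3.002, 3.008 and 3.014 and log2 fold changes of 2.09, 1.99 and 1.77. Just outside were evm.TU.ctg397.15, evm.TU.ctg3.4 and evm.TU.ctg770.2, with ratios of 2.996, 2.992 and 2.984 and log2 fold changes of 1.72, 1.73 and 1.96. The values on either side overlapped, and the median ratio over the 128 was 3.44.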

How the data were processed

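The authors filtered out adapter-bearing, ambiguous and low-quality reads, aligned the 150 bp paired-end reads to the genome of Artemia franciscana with HISAT2 2.0.5 and counted them with featureCounts 1.5.0-p3 (versions from the submitters' processing notes). How strand was treated in counting was not stated in what was read here. The deposited table holds raw read counts and FPKM values per gene model and library. The authors computed FPKM from count and length. Its library scaling was not the column total used for CPM, since spread between libraries differed in CPM and FPKM. At 5 h evm.TU.ctg290.12 had 51.2 ± 0.573 CPM but 96.9 ± 6.95 FPKM (SD). Model lengths were recovered by dividing count by FPKM. The library divisor this needs was searched for so that lengths of well-counted models came out closest to whole. With it, lengths were whole within 0.05 bases in 100.0% of models with reads. 0 count columns had no sample.

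CPM in the text is count over the library's total. Fold changes come from edgeR 4.0.16 (R 4.3.3), by its quasi-likelihood F test on the counts of all models, with TMM factors, filterByExpr (minimum count 10, minimum total 15), group as the only term and Benjamini-Hochberg adjustment. The limits for a call were those of the study's methods, 0.05 for the adjusted p and 1 for the log2 fold change. Standard errors are the log2 fold change over the square root of F and belong to the contrast fitted over both groups. SD covers the spread between the 3 libraries of a group. Replicates differed by more than sampling noise (chi-square per degree of freedom 2.41 to 26.4). The fit was tested on simulated data. Alternatives were RLE factors, library totals, no filter, a filter at 1 CPM, DESeq2 1.42.0, limma-voom (limma 3.58.1), a replicate block, other limits of the rule and leaving out each library. The 3-fold limit inside the test and the reading of the left-out library were added after seeing the data.

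The members, the GO groups and the other lists were chosen with earlier results of these data known. Named models were the 10 largest log2 fold changes, the 5 highest and 3 lowest by CPM at 5 h, those named by the study, up to 4 per GO group, those nearest the limit of 3, adjacent pairs, the 3 widest and 3 narrowest in spread at 5 h, the 5 longest and the 5 highest by FPKM. Figures were drawn with matplotlib 3.10.9.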

Additional observations from a re-analysis of the deposited data

How the results depend on the processing

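The number of models that met the rule depended on its limits. It was 67 with at least 5 CPM in diapause in place of 2, 233 at a ratio of 2.5 and 28 at a ratio of 4. Leaving out each library in turn gave 134 to 234 models, the highest without ArR_5h replicate 3. Scaling by TMM factors gave 129 models and FPKM ratios 132, each sharing 120 with the 128. Over all models, 836 were called with the 2-fold limit inside the test and 146 with 3-fold, in place of 1709, and 81 of the 128 with 3-fold. With TMM factors ArR_5h replicate 3 was the highest library in 29 models, in place of 12. The median log2 fold change of the 128 was 2.11 to 2.21 over the alternatives, and the lowest of any model was 1.62. No model lost its call outside the stricter limits inside the test. The rule chose the 128 on these same libraries, so nothing is read from the calls they kept, here or with the block below. Correlations of same-numbered deviations were small (0.019, 0.033 and 0.095), and whether replicate numbers pair the libraries was not tested. With a replicate block, all 128 stayed called, the median was 2.18 and 1693 of all models were called. The best match of ArR_5h replicates 1 and 3 was the ArD_0h library of the same number, that of replicate 2 was not. Models at 2 to 5 CPM in diapause rest on as few as 21 reads in a library, and counts without molecular identifiers include PCR copies.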
